A study of Mus musculus with 42 samples.

Results

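8 genes of retinoid handling were followed in mouse liver across the day on a standard and a high-fat diet: Rdh7, Rdh11, Rdh16, Rdh16f2, Hsd17b6, Lrat, Aldh1a1, and Cyp26a1. They were taken by gene name from a table of read counts, 8 of 54532 genes. The study compared female C57BL/6 mice (C57BL/6NHsd in the study's methods) that were 3 weeks old at the start and ate 1 of 2 diets for 3 weeks. The standard diet, AIN93G, had 16% of its energy as soybean oil, and the high-fat diet (HFD), a modified AIN93G, had 45%. Mice of both diets ate freely and were not fasted. At each of 7 times, every 4 h from Zeitgeber time (ZT) 0, the time of lights on, to ZT 24, 3 separate mice per diet were sequenced, so that p-values measure the spread between mice. Poly(A) RNA labelled as liver was sequenced in 42 libraries. The question was whether diet and time of day altered these genes in liver, and which of them were still read in libraries rich in adipocyte RNA.

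Vitamin A circulates as retinol and is stored in liver as retinyl esters, mostly in stellate cells. Retinol and retinal are interconverted by dehydrogenases and reductases, retinal is oxidised to retinoic acid by aldehyde dehydrogenases, and retinoic acid is removed by cytochromes of the CYP26 family. Retinoic acid acts through nuclear receptors (RAR and RXR), and the CYP26 enzymes are classic targets of those receptors. Adipose tissue also takes up, stores, and oxidises retinol.

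The labelled tissue was checked with Alb, the albumin gene of hepatocytes, and 32 libraries lay above 10000 CPM of Alb, where CPM are the counts of a gene scaled to a common library total. In those liver libraries Alb lay between 66434 and 112000 CPM, and Adipoq, the adiponectin gene of adipocytes, between 0 and 5.01 CPM. In the other 10 libraries Alb lay between 18.7 and 81.0 CPM and Adipoq between 1455 and 2984 CPM. The summed level of 10 hepatocyte markers was 28.5 to 119 CPM in these adipocyte-rich libraries against 114900 to 161000 CPM in liver. That of 9 adipocyte markers was 16550 to 27510 against 15.5 to 81.8 CPM, that of 4 fibroblast markers 3108 to 7583 against 42.9 to 114 CPM, that of 8 mammary epithelial markers 61.3 to 991 against 191 to 362 CPM, and that of 6 lymphocyte markers 2.21 to 684 against 1.65 to 6.41 CPM. The adipocyte-rich libraries were the 6 from AIN93G mice at ZT 16 or ZT 20 and, for each diet, replicates 1 and 2 at ZT 24, so that diet could be compared in liver from ZT 0 to ZT 12 only. Total counts were 14592481 to 19815356 in liver and 15687740 to 21368409 in adipocyte-rich libraries, and 3 counts correspond to at most 0.206 CPM. The 6 libraries of ZT 12 fell apart by Dbp, an output gene of the circadian clock. Of them, 3 (AIN93G replicates 2 and 3 and HFD replicate 3) had 0.129 to 0.369 CPM, close to the 0.264 to 0.834 CPM of ZT 0, and the other 3 had 59.0 to 91.4 CPM. Labels gave 4 of these libraries to the dark phase and 2 to the light phase. The 2 liver libraries of ZT 24 had 66.1 and 148 CPM of Dbp. Whether the time labels of the ZT 12 and ZT 24 libraries are right was not tested, and times are given as labelled throughout.

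4 of the members lie in 1 gene cluster on mouse chromosome 10 (build GRCm38, mm10), within 206 kb. Rdh16 spans positions 127801152 to 127846565 on the plus strand, Rdh16f2 127866474 to 127877317 on the plus strand, Rdh7 127884028 to 127888817 on the minus strand, and Hsd17b6 127990936 to 128007611 on the minus strand. Rdh16 overlaps the pseudogene Rdh18-ps on the same strand. Reads from near-identical stretches may be left out or given to the wrong gene by the counting. Of the 100-base windows of the reference transcripts, Rdh16f2 shared 0 with any other gene of this stretch, Rdh7 and Hsd17b6 shared 4, and Rdh16 and Hsd17b6 shared 5. More were shared with neighbours that are no members, 282 by Rdh16 and Rdh18-ps, 166 by Rdh16 and Rdh9, 149 by Hsd17b6 and Rdh1, and 65 by Rdh7 and Rdh18-ps, so that the counts of Rdh16, Hsd17b6, and Rdh7 are uncertain to that extent. Rdh11 lies on chromosome 12 (79174337 to 79192293, minus strand), Lrat on chromosome 3 (82892579 to 82903973, minus strand), and Aldh1a1 (20492715 to 20643462) and Cyp26a1 (37697808 to 37701528) on the plus strand of chromosome 19.

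RefSeq promoter windows (GRCm38.p6, 250 bases before to 50 bases after a start) were found for 8 of 8 members. The window of Cyp26a1 is shown because a direct repeat with 5 spacer bases (DR5), the element bound by RAR and RXR, was found in it from 32 to 16 bases before the start, on the minus strand, and in no window of another member. A DR5 was held by 0.115% of 27025 genes in the same table. The windows of 3 cluster members are shown because stretches of the same letters recur in them. A run of 17 bases was shared by Rdh16 and Rdh16f2 and another run of 17 bases by Rdh16f2 and Rdh7. The longest run that Hsd17b6 shared with any of them was 9 bases. Capitals mark the DR5 in the first sequence and the shared runs in the others.
Cyp26a1, chr19:37697558-37697857, plus strand: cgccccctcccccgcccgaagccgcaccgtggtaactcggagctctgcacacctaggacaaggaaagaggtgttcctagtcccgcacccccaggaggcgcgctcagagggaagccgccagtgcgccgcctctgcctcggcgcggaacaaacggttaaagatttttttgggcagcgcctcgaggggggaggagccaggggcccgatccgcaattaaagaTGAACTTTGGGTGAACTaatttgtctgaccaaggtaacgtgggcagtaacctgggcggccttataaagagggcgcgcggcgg
Rdh16, chr10:127800903-127801202, plus strand: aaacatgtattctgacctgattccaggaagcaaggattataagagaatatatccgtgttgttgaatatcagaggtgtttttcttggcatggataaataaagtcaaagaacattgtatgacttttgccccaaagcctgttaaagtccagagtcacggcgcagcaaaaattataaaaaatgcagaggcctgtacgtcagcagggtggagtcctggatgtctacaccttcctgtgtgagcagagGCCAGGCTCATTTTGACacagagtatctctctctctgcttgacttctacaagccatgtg
Rdh16f2, chr10:127866226-127866525, plus strand: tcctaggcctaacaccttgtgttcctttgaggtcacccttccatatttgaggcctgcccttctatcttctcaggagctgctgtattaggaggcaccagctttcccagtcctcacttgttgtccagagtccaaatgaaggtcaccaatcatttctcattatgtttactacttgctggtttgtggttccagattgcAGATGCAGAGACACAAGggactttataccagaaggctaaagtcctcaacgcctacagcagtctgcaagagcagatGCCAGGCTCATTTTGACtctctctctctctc
Rdh7, chr10:127888684-127888983, minus strand: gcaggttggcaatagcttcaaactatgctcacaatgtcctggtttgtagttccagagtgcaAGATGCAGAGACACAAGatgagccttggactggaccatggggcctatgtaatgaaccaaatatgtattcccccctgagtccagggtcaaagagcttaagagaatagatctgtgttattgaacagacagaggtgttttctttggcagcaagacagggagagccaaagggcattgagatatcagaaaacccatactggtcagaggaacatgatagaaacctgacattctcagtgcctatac
Motifs were searched on both strands, and the matches are descriptions of letters in the windows, not of binding. An E-box, CACGTG, was found in a window of Rdh11 alone among the members (2 copies in chr12:79190912-79191211), and 8.09% of genes held one. TATAAA was found in windows of Rdh16, Rdh16f2, and Cyp26a1 and in 15.7% of genes. TTANGTAA and TCACCCCAC were found in no window of a member, and in 2.72% and 0.614% of genes.

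Per length, Rdh7 was the highest of the members in liver, with a median of 785 CPM per kb over 32 libraries, followed by Rdh16f2 (214), Hsd17b6 (181), Aldh1a1 (111), Rdh16 (14.6), Rdh11 (13.9), Lrat (3.58), and Cyp26a1 (1.52). Across libraries, Rdh7 and Rdh16f2 were also the steadiest members. Rdh7 varied 1.602-fold between its lowest and highest liver library and Rdh16f2 1.73-fold, with coefficients of variation of 11.7% and 14.9%. Rdh11 varied 7.02-fold, Hsd17b6 4.58-fold, Aldh1a1 4.40-fold, Rdh16 3.61-fold, and Lrat 2.85-fold. Cyp26a1 ranged from 0.126 to 17.2 CPM, and its lowest library held 2 counts, so that its fold range rests on few reads.

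**Figure D1:**
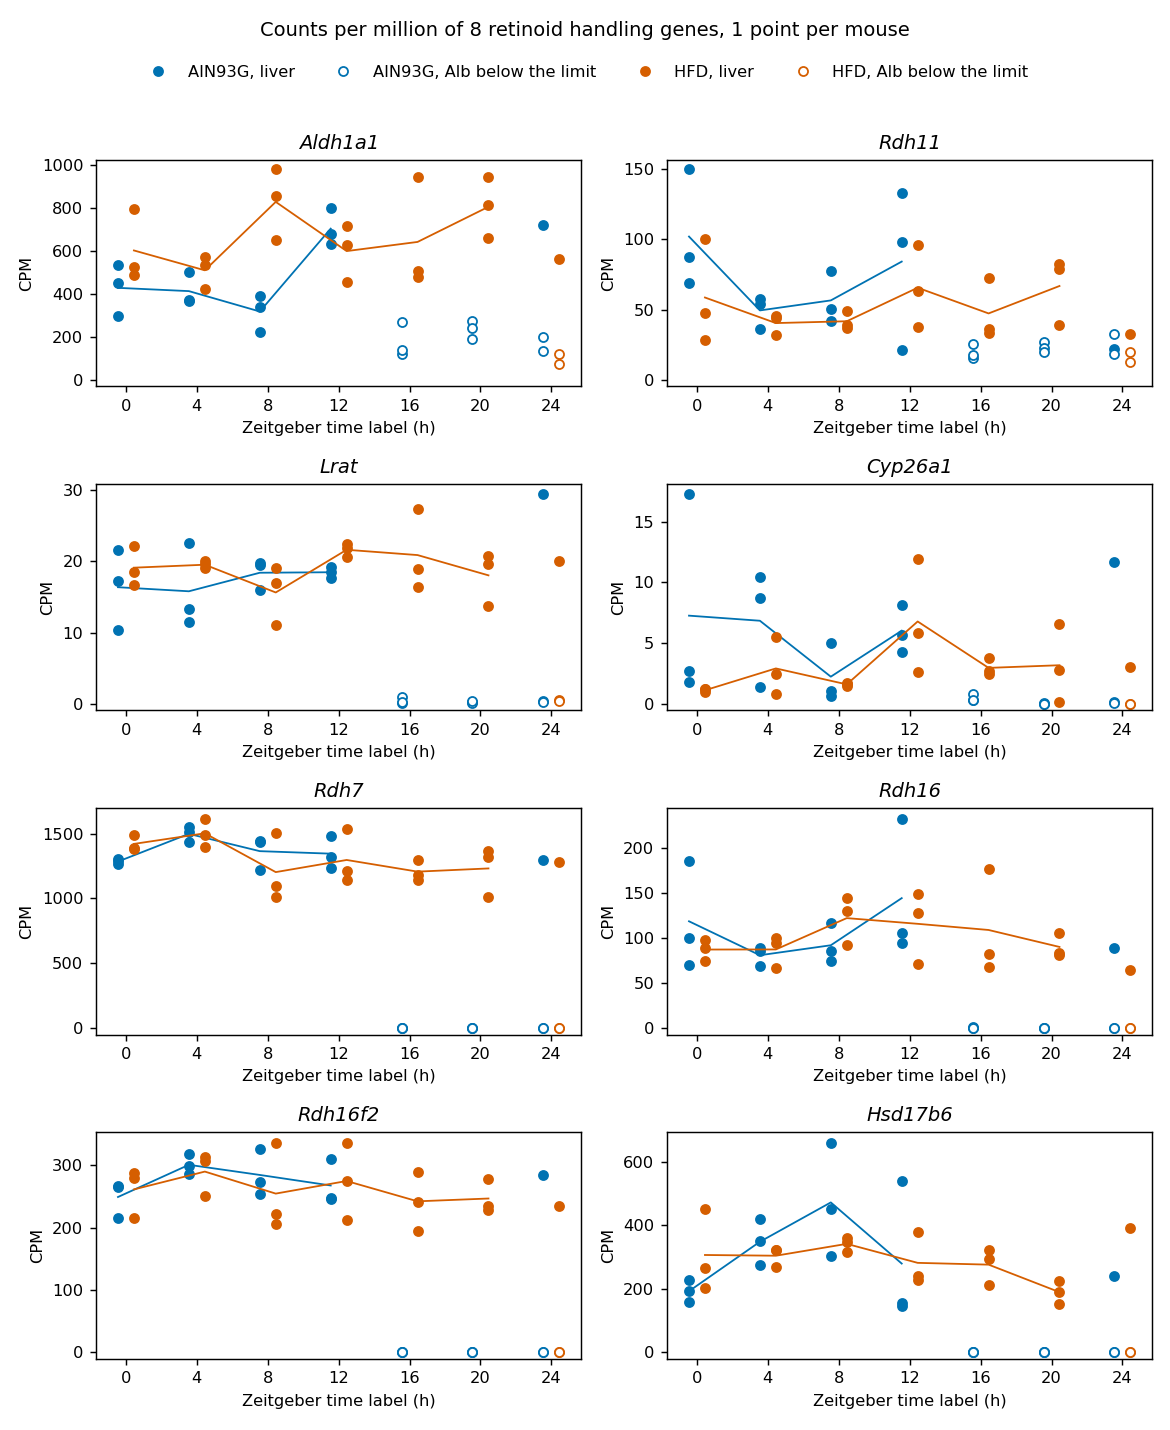
CPM (vertical axes, linear) of each member against the labelled Zeitgeber time (horizontal axes, h), 1 point per mouse, blue for AIN93G and orange for HFD, filled for liver libraries and open for libraries with Alb below 10000 CPM, with lines through the liver means of ZT 0 to ZT 20. The open points of Rdh7, Rdh16, Rdh16f2, and Hsd17b6 lie at or near 0, whereas those of Aldh1a1 lie between 73.2 and 271 CPM and those of Rdh11 between 12.8 and 32.6 CPM.

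In liver, no member passed the edgeR quasi-likelihood test of diet at a Benjamini-Hochberg adjusted p under 0.05 at ZT 0, ZT 4, ZT 8, or ZT 12, for the mean diet difference over these times, or for the interaction of diet with time. All 8 members passed the filter on low counts. Among the 12000 genes tested, 0%, 0%, 0.0167%, and 0% were called at the 4 time points, 0.108% for the mean difference, and 0% for the interaction. At an unadjusted p under 0.05, edgeR gave 1 member at ZT 0 (Cyp26a1), 1 at ZT 8 (Aldh1a1), 2 for the mean difference (Aldh1a1 and Cyp26a1), and 1 for the interaction (Aldh1a1), against 484, 1397, 1007, and 722 of all genes. DESeq2 called 1 member at ZT 8, Aldh1a1, of 30 genes in all, and no member in the other diet tests, where it called 13, 0, and 3 genes at ZT 0, ZT 4, and ZT 12, 83 for the mean difference, and 5 for the interaction. The diets did not overlap for 2 members at ZT 0 (Rdh7 and Cyp26a1), 0 at ZT 4, 1 at ZT 8 (Aldh1a1), and 1 at ZT 12 (Lrat), where 12.9%, 7.98%, 13.1%, and 9.63% of the genes tested did not overlap.

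**Figure D2:**
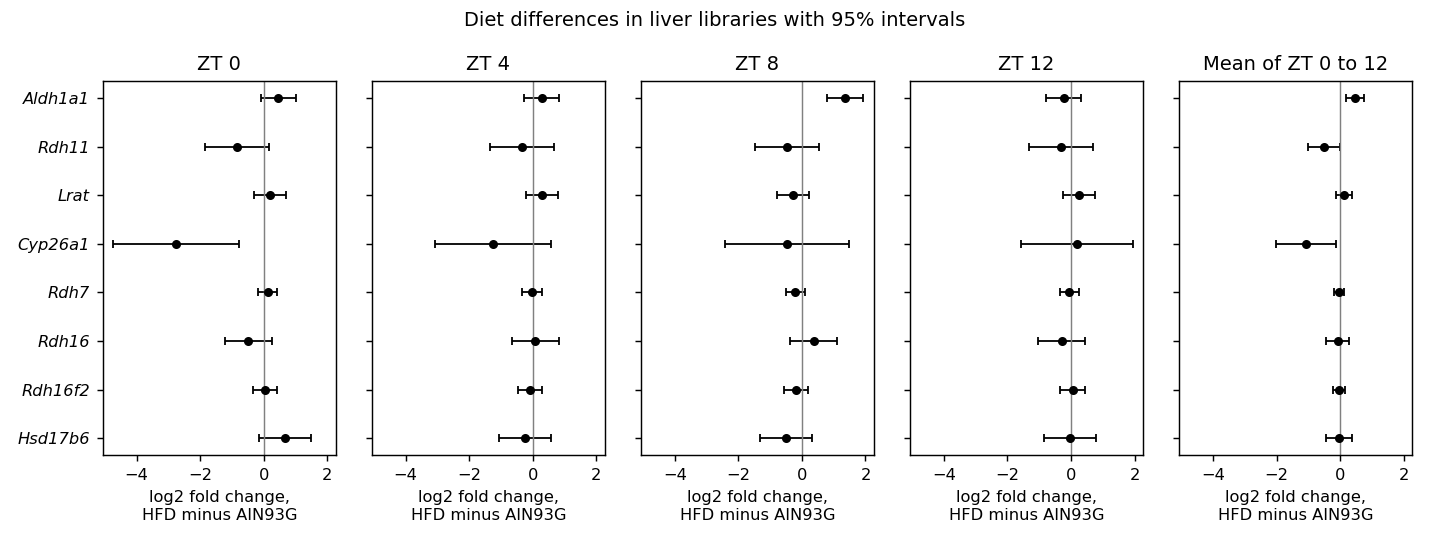
Log2 fold change between diets in liver (horizontal axes, HFD minus AIN93G) for each member (rows) at ZT 0, 4, 8, and 12 and for the mean of these times, with 95% confidence intervals of the edgeR fit of 32 liver libraries. The widest intervals are those of Cyp26a1, and the difference of Aldh1a1 at ZT 8 (1.35) is the farthest above 0.

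None of the 4 dehydrogenases of the chromosome 10 cluster passed the test of diet in liver. Rdh7 and Hsd17b6 code for short-chain dehydrogenases that act on retinol and on androgens, and Rdh16 and Rdh16f2 for relatives of them. At ZT 0, Rdh7 had 1301, 1286, and 1265 CPM on AIN93G and 1384, 1487, and 1390 CPM on HFD. All HFD mice lay above all AIN93G mice, by 0.13 on the log2 scale (SE 0.15, adjusted p = 0.999), and the diets overlapped at ZT 4, ZT 8, and ZT 12. The mean diet difference over ZT 0 to ZT 12 was -0.04 for Rdh7 (95% interval -0.19 to 0.11) and -0.05 for Rdh16f2 (-0.24 to 0.14), the narrowest intervals of the members. It was -0.08 for Rdh16 (-0.45 to 0.29) and -0.02 for Hsd17b6 (-0.43 to 0.38). With single libraries left out, the means for Rdh7 lay between -0.08 and 0.00434 and those for Rdh16f2 between -0.10 and -0.00122. The mean for Rdh16 was 0.05 without AIN93G ZT 0 replicate 1, and that for Hsd17b6 lay between -0.12 and 0.24 when single libraries were left out, the highest without AIN93G ZT 12 replicate 1. Without the 3 ZT 12 libraries of low Dbp, the mean was -0.24 for Hsd17b6 (adjusted p = 0.992), -0.13 for Rdh7, -0.08 for Rdh16f2, and 0.03 for Rdh16. At ZT 12 the log2 fold change was -0.03 for Hsd17b6 and -0.05 for Rdh7. Without these libraries, with only AIN93G replicate 1 left on that diet, it was -0.92 and -0.43. The ZT 12 value of Hsd17b6 lay between -0.37 and 1.00 when single libraries were left out, the highest without AIN93G replicate 1.

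Hsd17b6 spread more between mice than Rdh7 did. At ZT 0 it had 157, 227, and 194 CPM on AIN93G and 202, 266, and 453 CPM on HFD, and at ZT 8 it had 661, 453, and 304 CPM on AIN93G and 347, 362, and 317 CPM on HFD. The diets overlapped at both times. The differences were 0.66 (SE 0.40) at ZT 0 and -0.49 (SE 0.40) at ZT 8 on the log2 scale, and the interaction had an adjusted p of 0.902. They were 0.27 without HFD ZT 0 replicate 3 and -0.16 without AIN93G ZT 8 replicate 1. Rdh16 had 70.1 to 186 CPM on AIN93G and 75.0 to 97.5 CPM on HFD at ZT 0 (log2 fold change -0.48, SE 0.36, and 0.05 without AIN93G replicate 1), and Rdh16f2 215 to 268 and 216 to 288 CPM (0.05, SE 0.18, and between -0.06 without AIN93G replicate 3 and 0.16 without HFD replicate 3).

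Rdh11, a reductase of retinal, was lower on HFD by mean at each of the 4 times, within the spread of the mice. At ZT 0 the AIN93G mice had 68.6, 87.4, and 150 CPM and the HFD mice 28.3, 47.4, and 100 CPM. These groups overlapped through 1 HFD mouse. The log2 fold changes were -0.85 (SE 0.49), -0.33 (SE 0.49), -0.48 (SE 0.49), and -0.32 (SE 0.49) from ZT 0 to ZT 12, and the mean difference was -0.49 (SE 0.24, adjusted p = 0.594). Single libraries moved these values. The ZT 0 value lay between -1.45 without HFD replicate 1 and -0.42 without AIN93G replicate 1, at ZT 4 the value was -0.17 without AIN93G replicate 1, at ZT 8 it was -0.14 without AIN93G replicate 3, and at ZT 12 it was 0.17 without AIN93G replicate 3. Without the ZT 12 libraries of low Dbp the mean difference was -0.12, and at ZT 12 the difference was 1.14 without them (with 1 AIN93G and 2 HFD libraries left).

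Lrat, which esterifies retinol for storage, lay between 10.3 and 29.4 CPM in liver. At ZT 12 the AIN93G mice had 17.7, 19.3, and 18.4 CPM and the HFD mice 21.9, 22.4, and 20.6 CPM. These groups did not overlap. The difference was 0.24 on the log2 scale (SE 0.24, adjusted p = 0.808), and 0.23 without the 3 libraries of low Dbp. Its differences at ZT 0, ZT 4, and ZT 8 were 0.19, 0.28, and -0.27 (SE 0.25 each), between -0.06 and 0.48, 0.10 and 0.59, and -0.40 and -0.07 with single libraries left out, and the mean difference was 0.11 (95% interval -0.14 to 0.37), between 0.05 without AIN93G ZT 0 replicate 2 and 0.19 without AIN93G ZT 4 replicate 2. The summed level of 17 markers of stellate cells, the main hepatic site of Lrat, was 380 to 690 CPM over the liver libraries. At ZT 12 it was 411 to 565 CPM on AIN93G and 527 to 629 CPM on HFD, and its part in the levels of Lrat was not tested. In bulk tissue, fewer cells of a type and less RNA per cell cannot be told apart.

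Aldh1a1, which oxidises retinal to retinoic acid, showed the diet difference with the lowest p among the members. At ZT 8, the AIN93G mice had 222, 338, and 392 CPM and the HFD mice 650, 855, and 979 CPM. All HFD mice lay above all AIN93G mice at that time, and the means were 317 ± 86.6 and 828 ± 166 CPM (SD, n = 3 each). The log2 fold change was 1.35 (SE 0.27, 95% interval 0.79 to 1.91), with an edgeR adjusted p of 0.153. Whether it was called depended on the processing. The adjusted p was 0.00119 with DESeq2 and 1.73e-05 when every gene with at least 1 count was kept, 0.477 when the 6 libraries of ZT 8 were fitted alone, and 0.047 without HFD replicate 2. The log2 fold change lay between 1.15 and 1.58 when single libraries were left out. At the other times the diets overlapped. AIN93G mice had 297 to 535 CPM at ZT 0, 367 to 501 at ZT 4, and 632 to 799 at ZT 12, and HFD mice 486 to 794, 423 to 573, and 456 to 714 CPM. The log2 fold changes were 0.46 (SE 0.27) at ZT 0, 0.28 (SE 0.27) at ZT 4, and -0.24 (SE 0.27) at ZT 12, the last -0.65 without the libraries of low Dbp. With single libraries left out, they lay between 0.24 and 0.69, between 0.19 and 0.41, and between -0.35 and -0.06. The mean difference over the 4 times was 0.46 (SE 0.13, adjusted p = 0.197). It was 0.70 (adjusted p = 0.0599) without ZT 12 and 0.36 (adjusted p = 0.933) without the ZT 12 libraries of low Dbp. The test of the interaction gave an adjusted p of 0.794.

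Cyp26a1, which clears retinoic acid, differed between diets most at ZT 0 and rested there on 1 mouse. The AIN93G mice had 17.2, 2.71, and 1.82 CPM and the HFD mice 1.19, 1.20, and 0.952 CPM. The diets did not overlap, but 1 AIN93G mouse stood far above the other 2. The log2 fold change was -2.76 (SE 0.96, 95% interval -4.74 to -0.78, adjusted p = 0.999), and was -1.01 without that mouse. It was called only where every gene with at least 1 count was kept (adjusted p = 0.00163). The diets overlapped at ZT 4 (1.39 to 10.4 CPM on AIN93G and 0.807 to 5.47 on HFD), at ZT 8 (0.679 to 4.98 and 1.48 to 1.72), and at ZT 12 (4.26 to 8.12 and 2.64 to 11.9). The mean difference was -1.08 (SE 0.45, adjusted p = 0.51), -0.64 without the same mouse, and -1.50 without ZT 12.

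Time of day was tested on HFD from ZT 0 to ZT 20 and on AIN93G from ZT 0 to ZT 12, in liver libraries. On HFD, edgeR called 5.28% of 12000 genes and no member, with no member at an unadjusted p under 0.05 and none called by DESeq2. The lowest adjusted p-values of the members were 0.247 (Aldh1a1) and 0.272 (Cyp26a1). On AIN93G, 0.758% of the genes and no member were called. At an unadjusted p under 0.05 there were 2 members on AIN93G, Aldh1a1 and Hsd17b6, and DESeq2 called 1, Aldh1a1 (adjusted p = 0.00627), against 1288 and 279 of all genes. Aldh1a1 had an edgeR adjusted p of 0.082 on AIN93G, which was 0.0522 without the 3 libraries of low Dbp at ZT 12 and 0.764 without ZT 12. It was lowest at ZT 8 (317 ± 86.6 CPM) and highest at ZT 12 (703 ± 86.0 CPM), and these 2 groups did not overlap, as for 1 of the 8 members and 9.03% of the genes tested. This pair of times was picked after the values had been seen.

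Hsd17b6 on AIN93G had 157, 227, and 194 CPM at ZT 0 and 661, 453, and 304 CPM at ZT 8. The 2 times did not overlap, as for 1 of the 8 members and 23.7% of the genes tested, a pair also picked from the values. At ZT 12 it had 541 CPM in the mouse of high Dbp and 144 and 154 CPM in the 2 mice of low Dbp. The adjusted p over time was 0.328, and it was 0.0108 without the 3 mice of low Dbp at ZT 12, 0.195 without ZT 12, and 0.00608 without the AIN93G mouse of high Dbp at that time. Over both diets at ZT 12, Rdh11 lay between 96.3 and 133 CPM in the 3 libraries of low Dbp and between 21.4 and 63.1 CPM in the other 3, which did not overlap. This was so for 1 of the 8 members, and for 29.7% of the genes tested. Hsd17b6 lay between 144 and 239 and between 227 and 541 CPM, and Aldh1a1 between 632 and 714 and between 456 and 799 CPM. These libraries were split by Dbp after its values had been seen, and no test was made of the split.

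**Figure D3:**
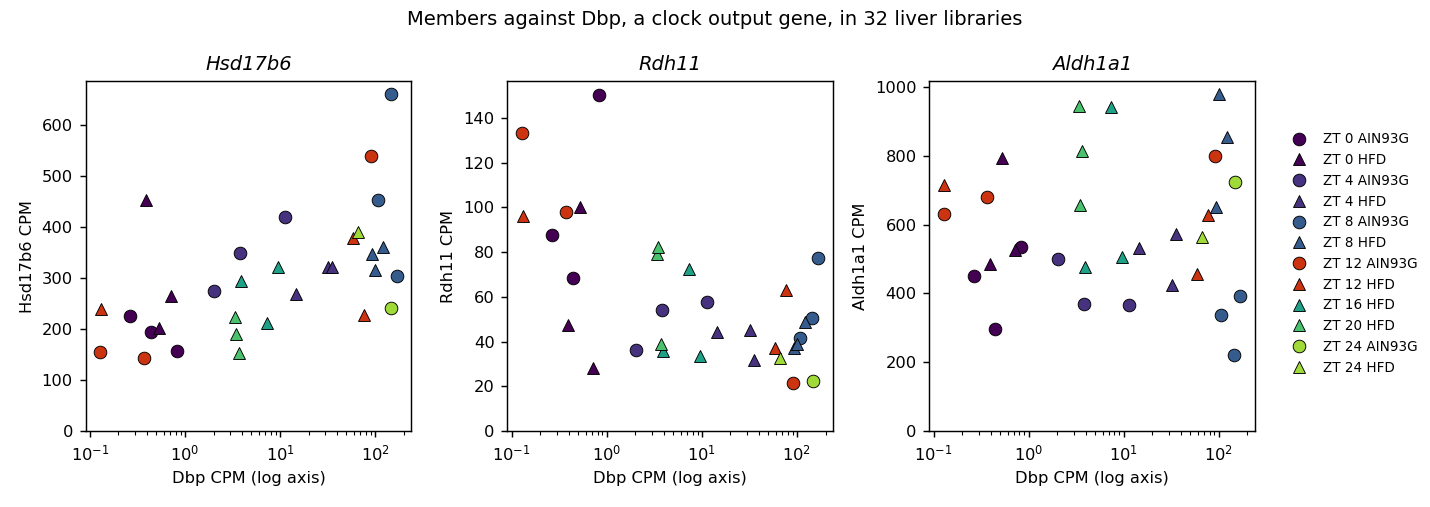
CPM of Hsd17b6, Rdh11, and Aldh1a1 (vertical axes, linear) against Dbp (horizontal axes, CPM, log scale) in 32 liver libraries, circles for AIN93G and triangles for HFD, coloured by the labelled time, ZT 12 in red. The 3 red points below 1 CPM of Dbp lie to the left with the ZT 0 points, with Rdh11 between 96.3 and 133 CPM.

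A 24 h cosine was fitted to the 18 HFD liver libraries of ZT 0 to ZT 20, and edgeR called 8.52% of 12008 genes and no member, with no member at an unadjusted p under 0.05 and none called by DESeq2. Rdh16 had the lowest adjusted p of the members (0.199), with an amplitude of 0.30 (SE 0.12) on the log2 scale and a fitted peak at ZT 11.7. Hsd17b6 had an amplitude of 0.28 (SE 0.11) and a fitted peak at ZT 7.62, and Cyp26a1 an amplitude of 0.82 (SE 0.35) and a fitted peak at ZT 13.01 (adjusted p = 0.234 for each). Rdh7 and Rdh16f2 had the smallest amplitudes (0.09 and 0.08). The fitted peaks of Rdh7 and Rdh16f2 carry standard errors of 2.81 and 3.94 h and give no order.

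Between pairs of HFD times, 1.26% of 180000 tests of a gene in a pair were called and none of a member, and DESeq2 called none of a member. At an unadjusted p under 0.05 there were 2 of 15 pairs for Aldh1a1, 2 for Cyp26a1, 1 for Hsd17b6, and 1 for Lrat, where 14.3% of all tests had one. By mean level, Cyp26a1 was highest at ZT 12 (6.78 ± 4.70 CPM, SD, n = 3) and lowest at ZT 0 (1.11 ± 0.14), Aldh1a1 highest at ZT 8 (828) and lowest at ZT 4 (509), and Hsd17b6 highest at ZT 8 (342) and lowest at ZT 20 (189). Rdh11 was highest at ZT 20 (66.8) and lowest at ZT 4 (40.3), Rdh16 highest at ZT 8 (122) and lowest at ZT 0 (87.2), and Lrat highest at ZT 12 (21.6) and lowest at ZT 8 (15.6). Rdh7 was highest at ZT 4 (1502) and lowest at ZT 8 (1203), and Rdh16f2 highest at ZT 4 (290.1) and lowest at ZT 16 (242). No neighbours in these orders differed at an adjusted p under 0.05. The lowest adjusted p between neighbours was 0.507, for Cyp26a1 at ZT 12 and ZT 20.

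Of the members, Aldh1a1 and Rdh11 were kept in the adipocyte-rich libraries. Their medians there were 29.99% and 40.99% of the liver median, those of Lrat and Cyp26a1 1.72% and 2.79%, and that of Rdh7 0.0198%, where Alb was at 0.0623%. The ranges of 5 members, the 4 of the cluster and Lrat, did not overlap between liver and adipocyte-rich libraries, where 43.8% of the genes tested did not overlap. Aldh1a1 had 73.2 to 271 CPM in the 10 libraries and 222 to 979 CPM in liver, and Rdh11 12.8 to 32.6 and 21.4 to 150 CPM, so that both overlapped. Lrat had 0.115 to 0.934 CPM. The summed level of the 17 stellate markers was 770 to 1341 CPM there, with 11 of the 17 above a median of 1 CPM against 17 of 17 in liver. Fibroblast markers summed to 3108 to 7583 CPM in the same libraries, and which cells gave the stellate sum was not tested. Cyp26a1 had 0 to 0.799 CPM, with no count in 4 of the 10 libraries.

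The 4 genes of the cluster were at or near 0. Rdh16f2 had 2 counts in 1 of the 10 libraries and none in the others, Hsd17b6 at most 3 counts and none in 7, and Rdh16 none in 6 and 16 counts in its highest. Rdh7, the highest member in liver, had 0 to 14 counts. Neighbours in the same stretch were read in liver at a median of 18.6 CPM (Rdh9) and 63.1 CPM (Sdr9c7) and had a median of 0 in the adipocyte-rich libraries. Rdh1 and Rdh19 in the same stretch were near 0 in both kinds of library, with liver medians of 0.243 and 0 CPM. At the ends of the stretch, Gpr182 had medians of 24.9 and 5.27 CPM and Prim1 of 4.03 and 5.96 CPM.

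**Figure D4:**
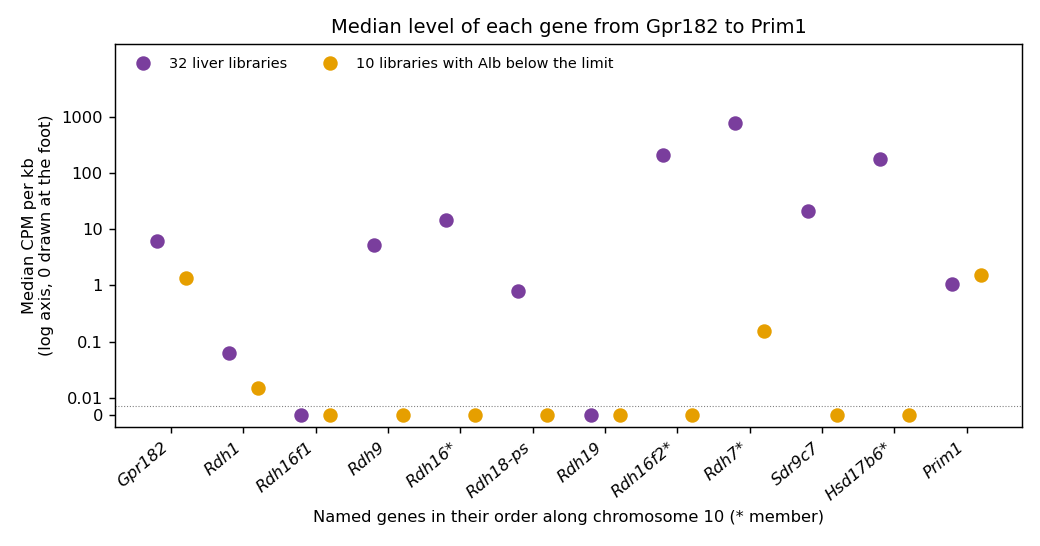
Median CPM per kb of gene length (vertical axis, log scale, 0 drawn at the foot) of the named genes from Gpr182 to Prim1 in their order along chromosome 10 (horizontal axis, members marked with an asterisk), purple for 32 liver libraries and orange for 10 adipocyte-rich libraries. Rdh16f2, Rdh7, and Hsd17b6 stand highest in liver (214, 785, and 181 CPM per kb), and of the 4 members only Rdh7 has an adipocyte-rich median above 0.

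**Figure D5:**
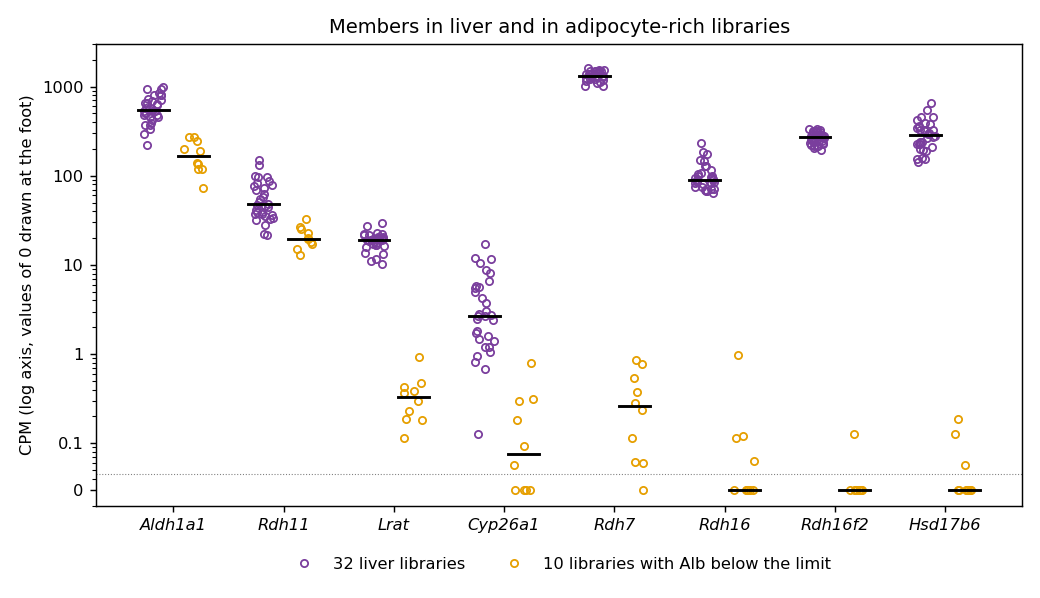
CPM (vertical axis, log scale, values of 0 drawn at the foot) of each member in 32 liver libraries (purple) and 10 adipocyte-rich libraries (orange), 1 circle per library, with bars at the medians. Aldh1a1 and Rdh11 overlap between the 2 kinds of library, and the 4 cluster genes and Lrat do not.

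At ZT 16 and ZT 20, the labelled diet comparison set HFD liver libraries against AIN93G adipocyte-rich libraries, so that diet and tissue cannot be told apart. All members but Aldh1a1 and Rdh11 passed the filter on low counts through the HFD libraries alone and had to differ by mean. Of 14082 and 13697 genes tested, edgeR called 55.7% and 59.3%, with 27% and 28.1% called higher on HFD. At ZT 16, Aldh1a1 had 477 to 943 CPM in HFD and 117 to 269 CPM in AIN93G libraries, and Rdh11 33.5 to 72.4 and 15.3 to 25.5 CPM. The log2 fold changes were 2.75 (SE 0.43, adjusted p = 0.00145) and 2.18 (SE 0.34, adjusted p = 0.00144), and at ZT 20 they were 2.44 (SE 0.23, adjusted p = 3.08e-05) and 2.22 (SE 0.32, adjusted p = 0.000392). Scaling by library size alone lowered the median of all genes to -0.91 at ZT 16 and -0.71 at ZT 20 on the log2 scale, from -0.03 and -0.04, and gave 1.87 and 1.29 for Aldh1a1 and Rdh11 at ZT 16 and 1.78 and 1.54 at ZT 20, past the threshold in each.

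For the other 6 members the pooled CPM are given as ratios, with intervals that cover counting error only. Lrat was 43.6 times as high in the HFD libraries at ZT 16 (28.9 to 69.1) and 83.4 times as high at ZT 20 (47.5 to 162), and Cyp26a1 6.20 times (3.98 to 10.1) and 87.4 times (23.8 to 728), the last against 2 counts in all. The ratio of Rdh7 was 11800 (5060 to 36400) at ZT 16, against 5 counts, and 3570 (2280 to 5930) at ZT 20, against 19 counts. That of Rdh16 was 336 (207 to 589) at ZT 16, against 16 counts, and 1240 (485 to 4560) at ZT 20, against 4 counts. Against a floor of 3 counts per library, Rdh16f2 was at least 1300-fold higher in the HFD libraries at ZT 16 and at least 1360-fold higher at ZT 20, and Hsd17b6 at least 1040-fold higher at ZT 20. Hsd17b6 at ZT 16 had 3 counts in the AIN93G libraries, a ratio of 4500 with an interval of 1540 to 21800. Single AIN93G libraries held most of the counts behind several of these ratios. At ZT 16, replicate 1 held 15 of the 23 counts of Lrat and all 3 of Hsd17b6, replicate 2 held 13 of the 23 counts of Cyp26a1 and all 16 of Rdh16, and replicate 3 held 4 of the 5 counts of Rdh7. Without these libraries the ratios were 84.5 for Lrat (42.7 to 196), 9.55 for Cyp26a1 (5.05 to 20.3), and 38800 for Rdh7 (6960 to 1530000), and against the floor they were at least 1500-fold for Hsd17b6 and at least 583-fold for Rdh16. At ZT 20, both counts of Cyp26a1 came from replicate 1, and without it the HFD libraries were at least 17.5-fold higher by mean. The HFD libraries of ZT 20 ranged from 0.126 to 6.59 CPM of Cyp26a1, the lowest (replicate 3) on 2 counts. AIN93G replicate 1 had 0.0936 CPM, so that the ratios of Cyp26a1 at ZT 20 do not hold for each HFD mouse.

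Within the adipocyte-rich libraries, 2 of the 8 members passed the filter on low counts, Rdh11 and Aldh1a1. From ZT 16 to ZT 20 on AIN93G, Aldh1a1 had 117, 269, and 138 CPM and then 271, 243, and 191 CPM, and Rdh11 25.5, 15.3, and 17.2 CPM and then 26.8, 22.7, and 19.5 CPM. Both groups overlapped for both genes. The log2 fold changes were 0.59 (SE 0.37) and 0.43 (SE 0.27), with an adjusted p of 0.682 for each, where 0.00711% of 14071 genes were called. They lay between 0.34 and 1.02 and between 0.25 and 0.63 with single libraries left out. At ZT 24, with 2 adipocyte-rich libraries per diet, Aldh1a1 had 197 and 134 CPM on AIN93G and 73.2 and 120 CPM on HFD, and Rdh11 18.1 and 32.6 CPM and 19.9 and 12.8 CPM. The log2 fold changes were -1.08 (SE 0.46, adjusted p = 0.415) and -0.95 (SE 0.33, adjusted p = 0.385), where 0% of the genes were called. These values lay between -1.61 and -0.72 and between -1.28 and -0.53 with single libraries left out. Both had an unadjusted p under 0.05 (0.0432 and 0.0194), as 1674 of all genes did, and DESeq2 called neither, with 285 genes called in all.

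The other genes of the pathway were taken from lists of 53 genes in all, members included, from transport and cleavage to receptors, and 39 of them were tested in liver. By edgeR, 0 were called for diet at any of the 4 times, for the mean difference, or for the interaction. At an unadjusted p under 0.05 there were 4, 0, 2, and 2 at ZT 0, 4, 8, and 12, 4 for the mean difference, and 1 for the interaction, where 484, 301, 1397, 896, 1007, and 722 of all 12000 genes had one. DESeq2 called 1, Aldh1a1 at ZT 8. Their median diet difference lay between -0.10 (ZT 8) and 0.05 (ZT 0) on the log2 scale, where the median of all genes lay between -0.01 and 0.00. Over time on HFD, edgeR called 1 of 39, Adh4 (adjusted p = 0.0422), an alcohol dehydrogenase, where 5.28% of all genes were called. DESeq2 called 5, and 1717 of all genes. The cosine called 4 of 39 by edgeR, where 8.52% of all genes were called, and 8 by DESeq2, which called 1696 of all genes. Those of edgeR were Adh1 (adjusted p = 0.0232), another alcohol dehydrogenase, Scarb1 (0.0285), a receptor for lipoproteins and carotenoids, Stra6l (0.0296), a receptor for retinol-binding protein, and Lpl (0.0414), lipoprotein lipase. Over time on AIN93G edgeR called 0, with 8 at an unadjusted p under 0.05 and 2 called by DESeq2, where these counts were 1288 and 279 over all genes.

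Between liver and adipocyte-rich libraries, the ranges of 19 of the 53 genes lay wholly higher in liver, those of 10 wholly higher in the adipocyte-rich libraries, and those of 24 overlapped. Of these, 41 passed the filter on low counts over all libraries, 19 of them higher in liver, 8 higher in the adipocyte-rich libraries, and 14 overlapping. Of all 13394 genes that passed it, 43.8% did not overlap. Among those higher in liver were Ttr, the carrier of retinol-binding protein (medians of 5465 and 0.580 CPM), Stra6l (297 and 0.402), and Aldh8a1, an aldehyde dehydrogenase (361 and 0.0600). Wholly higher in the adipocyte-rich libraries were Aldh1a3, another retinal dehydrogenase (27.99 against 0.652 CPM), Rbp7, a retinol-binding protein (9.49 against 0), and the lipases Lipe (1116 against 10.96) and Lpl (9226 against 30.2). Aldh1a7, a close relative of Aldh1a1 whose reads the counting may not fully separate, overlapped, with medians of 206 CPM there and 97.2 CPM in liver.

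Over the 32 liver libraries, the members did not follow one pattern. The highest correlations of log2 CPM between members were 0.64 for Rdh7 with Rdh16f2 and 0.54 for Rdh11 with Rdh16, and the lowest was -0.57 for Rdh11 with Hsd17b6, as descriptions over libraries that share times and diets. Among all genes tested, the closest to Rdh11 were Acsl5 (Pearson r = 0.91) and Aqp8 (0.90), to Rdh7 Lipc (0.88) and Glmp (0.81), to Aldh1a1 Ugdh (0.85) and Cd1d1 (0.79), and to Hsd17b6 Mgrn1 (0.80) and Pla2g12a (0.80). For Rdh16f2 they were Ergic3 (0.75) and Svbp (0.73), and for Rdh16 Dlat (0.74) and H2-Q1 (0.73). For Cyp26a1 they were Adam11 (0.62) and Trib2 (0.61), and for Lrat Gm19950 and Arvcf (0.61 each).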

How the data were processed

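RNA from 42 mice was sequenced as poly(A) libraries with a kit that does not mark strand. The authors deposited raw read counts for every gene in 1 table, per library. The submitters' processing notes name fastp, STAR, HTSeq 0.6.1, DESeq, and mm10. Diet and time came from the sample labels, and replicate numbers only name mice.

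The 8 members, the gene lists, and the Alb limit of 10000 CPM were chosen with earlier results of these data known. Tests used edgeR 4.0.16 (TMM, quasi-likelihood F-test, 1 mean per diet and time) on 32 liver libraries in 12 groups. Genes needed a mean count of 25 or more, and a call needed a Benjamini-Hochberg adjusted p under 0.05 over all genes. The ZT 16 and ZT 20 comparisons, the cosine, and the adipocyte-rich libraries were fitted separately. Alternatives were DESeq2 1.42.0, limma-trend, limma-voom, other filters and scalings, and left-out libraries. The members, list genes past a threshold, and the 2 genes closest to each member (Pearson, log2 CPM) were named by rule, and other list and cluster genes were picked after their values were seen. All 42 replicate pairs differed by more than sampling noise. The intervals of the ratios at ZT 16 and ZT 20 and the floors cover counting error only. Those of log2 fold changes came from the edgeR fit and include the spread between mice. Scripts were tested on simulated data.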

Additional observations from a re-analysis of the deposited data

How the results depend on the processing

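Of 100 member results, 1961 alternatives gave 1945 on the same side of the threshold, 16 that passed it newly, 0 that lost it, and 0 reversed calls. Only the calls at ZT 16 and ZT 20, of HFD liver against adipocyte-rich libraries, could be lost or reversed. The last 2 counts therefore say nothing of the liver comparisons. A change of sign without a call was counted as the same side, as for Rdh16 at ZT 0 (-0.48, and 0.05 without AIN93G replicate 1). Keeping every gene with at least 1 count brought Cyp26a1 (ZT 0, mean, HFD time, pairs), Aldh1a1 (ZT 8, mean, interaction, AIN93G time), Hsd17b6 (AIN93G time, pairs), and Rdh11 (AIN93G time) past it. The others were Aldh1a1 at ZT 8 and over AIN93G time with DESeq2, Aldh1a1 at ZT 8 without HFD replicate 2, and Hsd17b6 over AIN93G time without the ZT 12 libraries of low Dbp or without AIN93G ZT 12 replicate 1. Diets share no number in the library titles. Within a diet, 6 title numbers are shared by 13 liver libraries of different times, at most 1 number between any 2 times, and the labels do not say what they mark. The deviations of 8 such pairs from their group means had correlations of -0.297 to 0.237, over 0.1 in 1 pair, so that they were taken to share only a number. As a replicate block in limma-voom (block correlation 0.0166), chosen after seeing the data, the number brought no member past the threshold, with 4 genes called for the mean difference, 683 and 17 for time on HFD and AIN93G, 1021 for the cosine, and 2374 for pairs of times, against 4, 659, 17, 1026, and 2367 without the block. The comparisons at ZT 16 and ZT 20 and those of adipocyte-rich libraries were not fitted with it.

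Counts of called genes moved more. With every gene of at least 1 count kept, diet called 51, 19, 175, and 75 genes at ZT 0, 4, 8, and 12, the mean difference 229, the interaction 96, time 1734 on HFD and 870 on AIN93G, pairs of times 5585, and ZT 20 against ZT 16 in adipocyte-rich libraries 3. DESeq2 gave 13 at ZT 0, 30 at ZT 8, 3 at ZT 12, 83 for the mean, 5 for the interaction, 1717 and 279 for time on HFD and AIN93G, 1696 for the cosine, 4990 for pairs, and 58 and 285 in the 2 adipocyte-rich comparisons. Scaling by library size gave 22 for the mean and 2 for ZT 20 against ZT 16. The 6 libraries of a time point alone gave 9 at ZT 0 and 0 at ZT 8. With at least 25 counts in every library, time on AIN93G called 17. With the HFD liver library of ZT 24, the cosine called 367. Without the 3 ZT 12 libraries of low Dbp, a setting chosen after seeing the data, the counts were 2 for diet at ZT 12, 0 for the mean, 1584 and 763 for time on HFD and AIN93G, and 1710 for the cosine.

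Leaving out 1 library gave 0 genes for diet at ZT 0 and ZT 4, 0 to 37 at ZT 8 (highest without HFD replicate 2), 0 to 96 at ZT 12 (highest without AIN93G replicate 1), 5 to 189 for the mean (highest without the same library), 0 to 2 for the interaction, 309 to 1163 for time on HFD (without HFD ZT 8 replicate 3 and HFD ZT 12 replicate 3), 12 to 280 for time on AIN93G (without AIN93G ZT 8 replicate 2 and AIN93G ZT 12 replicate 1), 678 to 1710 for the cosine (without HFD ZT 12 replicates 2 and 3), 968 to 4450 for pairs (as for time on HFD), 0 to 1 for ZT 20 against ZT 16, and 0 to 1 for diet at ZT 24. The cause of these moves was not tested. Counts of 3 per library set the limit for the cluster genes and Cyp26a1 in adipocyte-rich libraries.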

Other observations

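At ZT 24 each diet had 1 liver library, so that diet was not compared there. The AIN93G library had 722 CPM of Aldh1a1, 22.2 of Rdh11, 11.7 of Cyp26a1, 29.4 of Lrat, and 241 of Hsd17b6, and the HFD library had 563, 32.9, 3.06, 20.0, and 391 CPM of the same genes. The 29.4 CPM of Lrat is its highest value in the 32 liver libraries. Dbp was at 148 CPM in the AIN93G and 66.1 CPM in the HFD library, where the 6 libraries of ZT 0 had 0.264 to 0.834 CPM.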
